A study of Anas platyrhynchos with 5 samples.

Results

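White feather bulbs of 2 duck breeds, Kaiya and Liancheng, were compared by small RNA sequencing. A feather bulb is the growing base of the feather, where epidermal cells multiply around a dermal core and where pigment cells sit in coloured plumage. The 2 libraries were chosen by their breed and colour labels out of 5 in the series, and each is a pool of birds (Anas platyrhynchos) aged 12 months with pure white plumage. The other 3 libraries are black bulbs of the Cui Hei breed, and black and white bulbs of Kaiya-Liancheng F2 ducks, whose plumage is white-black. 3 bulbs per duck were combined and then the ducks of a breed, in a number that the labels do not state. With 1 library a side there was no test. Breed, pool and library differ together and cannot be told apart, and in bulk samples fewer cells of a type and less RNA per cell cannot be told apart either.

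A microRNA (miRNA) is cut from a hairpin as a short strand of its 5p or 3p arm. It pairs with messenger RNAs mainly through its seed, bases 2 to 8, and so lowers their translation or stability. In skin and its appendages, miR-205 and the miR-200 family are known as epithelial miRNAs, the miR-10 and miR-196 families lie in the HOX clusters that pattern the body, miR-144 belongs to red blood cells and miR-126 to vessel walls.

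Reads assigned to mature miRNAs numbered 4269854 in Kaiya and 1601329 in Liancheng. Of 134 mature names in the tables, 132 were listed in both libraries and 103 had at least 50 reads in the 2 together, which held 99.99% and 99.98% of the reads. Levels below are CPM, read counts set against the library's total, scaled by TMM, which centres a trimmed mean of the log ratios between libraries. Each log2 ratio is Kaiya over Liancheng with its exact 95% counting interval. A log2 ratio of 1 in either direction, a 2-fold difference, is called the size.

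Levels were close for most miRNAs. The log2 ratio was under 0.5 in absolute value for 78 of the 103 (75.7%), with a median absolute value of 0.271 and an SD of 0.758. Across miRNAs, which are not replicates and share both libraries, the log2 levels had a Pearson's r of 0.980 and a Spearman's rho of 0.970. At the size were 13 of 103, or 12.6%: 7 (6.8%) higher in Kaiya and 6 (5.83%) higher in Liancheng. These 13 names came from 9 hairpins, 4 of which had both arms at the size. Their whole interval lay past the size for 9 and not for the other 4.

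**Figure D1:**
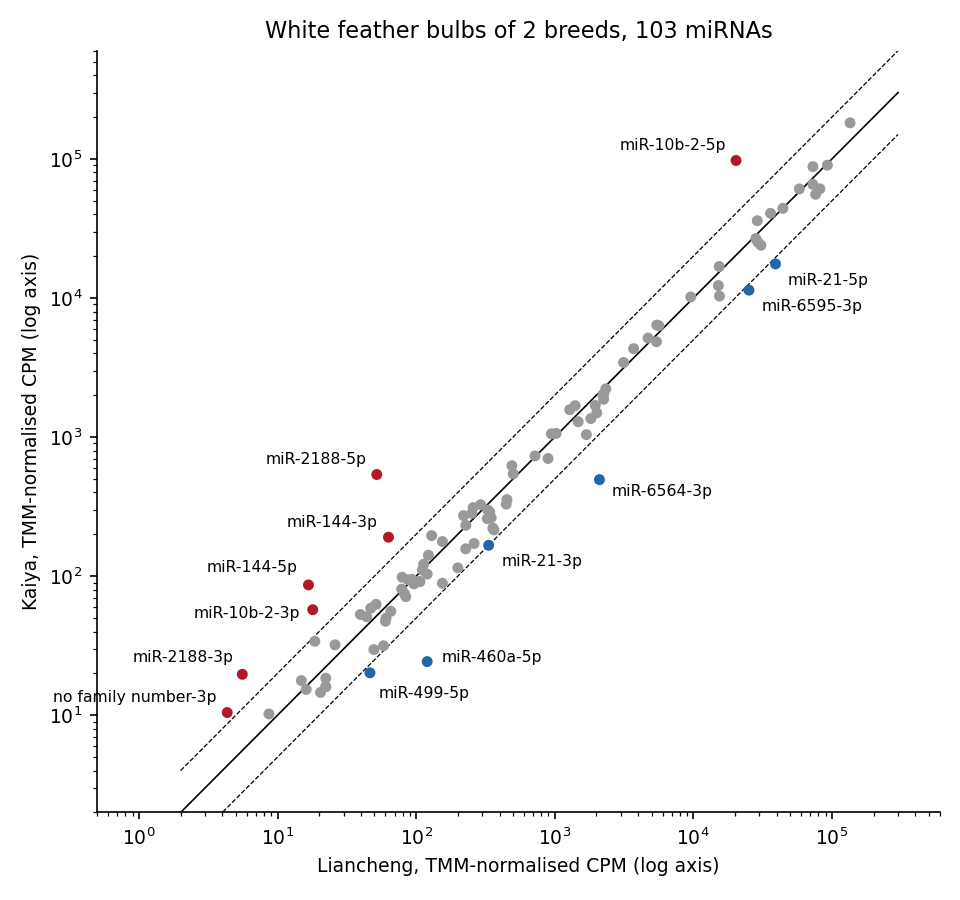
Levels of 103 miRNAs in white bulbs, Liancheng on the x axis and Kaiya on the y axis, both as TMM-normalised CPM on log axes. The solid line marks equal levels and the dashed lines a 2-fold difference; red points are the 7 miRNAs higher in Kaiya and blue points the 6 higher in Liancheng, which lie at low, middle and high levels.

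The sequences of 12 of the 13 names are shown as the tables list them, 5′ to 3′ with the seed in capitals, because they had the widest ratios between the 2 libraries. The last is a 3p arm without a family number in the tables. Higher in Kaiya were these.
miR-2188-5p: aAGGUCCAaccucacauguccu
miR-2188-3p: aUAUAUGUggucagaccuaucc
miR-144-5p: cGAUAUCAucguauacuguaagu
miR-144-3p: uACAGUAUagaugauguacucc
miR-10b-2-5p: uACCCUGUagauccgaauuugu
miR-10b-2-3p: cAAAUUCGuaucuaggggaau

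Higher in Liancheng were the following.
miR-460a-5p: cCUGCAUUguacacacugugugu
miR-6564-3p: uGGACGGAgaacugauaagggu
miR-6595-3p: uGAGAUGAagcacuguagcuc
miR-21-5p: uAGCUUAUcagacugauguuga
miR-21-3p: cAACAACAgucgguaggcugucu
miR-499-5p: uUAAGACUuguagugauguuu

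The 13 names carry 13 different seeds. Only 1 of them has a seed that another measured name shares, miR-10b-2-5p, whose seed ACCCUGU is also that of miR-10b-1-5p.

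In reads, the Kaiya and Liancheng libraries differed most in the HOX-encoded miR-10 family, listed here under the name miR-10b. Members of the HOX list took 27.4% of the Kaiya reads and 16.2% of the Liancheng reads. miR-10b-2-5p stood at 97516 CPM in Kaiya, 20346 in Liancheng, 33521 in white F2, 15135 in black F2 and 42116 in Cui Hei. Kaiya was thus the highest of the 5 libraries and Liancheng the second lowest. The log2 ratio was 2.26 (2.24 to 2.28), a 4.79-fold higher level in Kaiya. In rank, miR-10b-2-5p was the second most abundant miRNA in Kaiya and number 16 in Liancheng.

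The other arm of the same hairpin, miR-10b-2-3p, followed with 57.4 CPM in Kaiya, 17.96 in Liancheng, 26.8 in white F2, 23.6 in black F2 and 33.8 in Cui Hei. Here too Kaiya was the highest library, and Liancheng was the lowest, with an interval (12.0 to 25.8 CPM) that overlaps those of both F2 libraries. The log2 ratio was 1.68 (1.12 to 2.29), from 236 and 29 reads.

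The hairpin mir-10b-1, of the same family, differed much less. miR-10b-1-5p was the most abundant miRNA of both libraries, with 748273 reads (17.5%) in Kaiya and 218308 reads (13.6%) in Liancheng and a log2 ratio of 0.43 (0.42 to 0.43). Its 3p arm, miR-10b-1-3p, had a log2 ratio of -0.27 (-0.86 to 0.34) from 76 and 36 reads, an interval that holds 0, and its sign turned with upper-quartile scaling. Both 5p strands have 22 bases and differ by A12U (position counted from 1 at the 5′ end, the miR-10b-1-5p base first), shown in capitals.
miR-10b-1-5p: uacccuguagaAccgaauuugu
miR-10b-2-5p: uacccuguagaUccgaauuugu

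A difference at that centre position is also what separates miR-10b from miR-10a in mammals. The name miR-10b, kept here as listed, may therefore not hold for both strands. The sources used here do not say how reads with mismatches were shared between such copies, so the split between them is uncertain. As counted, miR-10b-2-5p made up 34.9% of the reads of the 2 strands in Kaiya (interval 34.8% to 35.0%) and 13.1% in Liancheng (12.9% to 13.2%). It made up 18.1% in white F2, 10.2% in black F2 and 24.1% in Cui Hei. Both F2 libraries lay nearer to Liancheng than to Kaiya in this share, black F2 below it. The 3p arms showed the same order between the breeds, with miR-10b-2-3p at 75.6% (70.5% to 80.3%) of the 3p reads in Kaiya and 44.6% (32.3% to 57.5%) in Liancheng. The other HOX-encoded miRNA measured, miR-196-1,2,3-5p, had a log2 ratio of 0.13 (0.09 to 0.17).

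Both arms of mir-144, a hairpin of the red cell lineage, and both of mir-2188, which is known from non-mammalian vertebrates, were higher in Kaiya. miR-144-3p stood at 191 CPM in Kaiya, 63.2 in Liancheng, 155.2 in white F2, 299 in black F2 and 348 in Cui Hei. Liancheng was the lowest of the 5, and Kaiya lay in the middle. The log2 ratio was 1.59 (1.29 to 1.91). miR-144-5p stood at 86.5 CPM in Kaiya, 16.7 in Liancheng, 67.6 in white F2, 92.0 in black F2 and 107 in Cui Hei. Again Liancheng alone was low, from 27 reads, and the ratio was 2.37 (1.81 to 2.99).

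miR-2188-5p had the highest ratio of all 103 miRNAs, 3.37 (3.06 to 3.70), or 10.3-fold. Its levels were 538 CPM in Kaiya, 52.0 in Liancheng, 277 in white F2, 508 in black F2 and 630 in Cui Hei. Liancheng was again the lowest library, and white F2 lay between the breeds. miR-2188-3p stood at 19.7 CPM in Kaiya, 5.57 in Liancheng, 21.0 in white F2, 32.3 in black F2 and 32.8 in Cui Hei, a ratio of 1.82 (0.83 to 3.0) from 81 and 9 reads. For these 4 arms Liancheng was thus the library that stood apart. Kaiya was within the range of the other 3 libraries for 3 of them and lay below it for miR-2188-3p, where its interval of 15.6 to 24.5 CPM overlaps that of white F2. The erythroid list was summed at 277 CPM in Kaiya and 79.9 CPM in Liancheng. It held 2 names, the arms of mir-144, and miR-451 and miR-486 were not among the names listed. The part of blood in the bulb pools in these ratios was not tested.

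**Figure D2:**
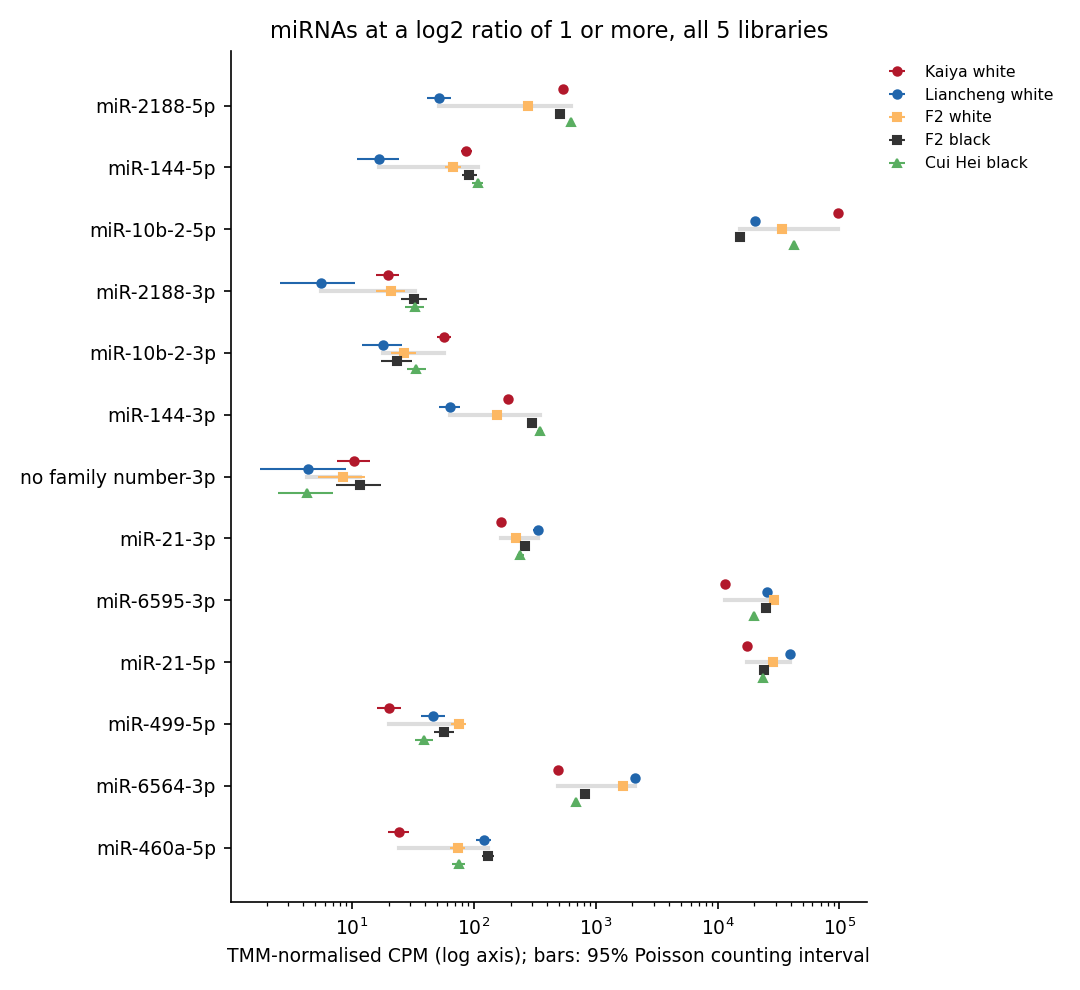
Levels of the 13 miRNAs at the size in each of the 5 libraries, as TMM-normalised CPM on a log axis, with bars for the 95% Poisson counting interval and grey lines for the range. Liancheng (blue) is the lowest for the mir-144 and mir-2188 arms, and Kaiya (red) is the lowest for the 6 miRNAs below them in the plot that are higher in Liancheng.

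The last of the 7 names higher in Kaiya, the 3p arm without a family number, had 43 reads in Kaiya and 7 in Liancheng. Its level was 10.5 CPM in Kaiya, 4.34 in Liancheng, 8.41 in white F2, 11.6 in black F2 and 4.30 in Cui Hei. With the fewest reads of the 13, 50 in all, its ratio of 1.27 had an interval of 0.10 to 2.67.

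On the other side, 6 miRNAs were higher in Liancheng, and for each of them Kaiya was the lowest of the 5 libraries. miR-460a-5p, also known from non-mammalian vertebrates, stood at 24.3 CPM in Kaiya, 120 in Liancheng, 74.1 in white F2, 131 in black F2 and 74.9 in Cui Hei. The ratio was -2.31 (-2.67 to -1.95), from 100 and 194 reads, a 4.94-fold higher level in Liancheng. miR-6564-3p stood at 494 CPM in Kaiya, 2103 in Liancheng, 1663 in white F2, 821 in black F2 and 685 in Cui Hei. The order ran from Kaiya to Liancheng with the other 3 libraries between, and the ratio was -2.09 (-2.17 to -2.01), from 2033 and 3396 reads.

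miR-6595-3p was an abundant miRNA, with 11392 CPM in Kaiya, 25210 in Liancheng, 28910 in white F2, 25038 in black F2 and 20064 in Cui Hei. Only Kaiya was low, and the ratio was -1.15 (-1.17 to -1.13). Its other arm, miR-6595-5p, had -0.49 (-1.12 to 0.17) from 60 and 33 reads.

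miR-21, which is abundant in growing and injured epithelium and in immune cells of mammals, was higher in Liancheng on both arms. miR-21-5p stood at 17590 CPM in Kaiya, 39188 in Liancheng, 28573 in white F2, 24208 in black F2 and 23395 in Cui Hei. Kaiya was the lowest and Liancheng the highest of the 5, with a ratio of -1.16 (-1.17 to -1.14). miR-21-3p stood at 167 CPM in Kaiya, 334 in Liancheng, 221.3 in white F2, 262 in black F2 and 239 in Cui Hei, in the same outer order. At -1.00 (-1.17 to -0.84) it sat on the size, and it fell short of it with DESeq2 size factors, upper-quartile scaling and 4 other alternatives.

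miR-499-5p, which in mammals lies within a muscle myosin gene, was rare. It stood at 20.2 CPM in Kaiya, 46.5 in Liancheng, 74.9 in white F2, 57.3 in black F2 and 39.2 in Cui Hei, with a ratio of -1.20 (-1.67 to -0.73) from 83 and 75 reads. Liancheng was in the middle of the 5, so Kaiya was the library apart.

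Nearest to the size from inside was miR-21-3p (-1.00), followed by miR-6595-3p (-1.15) and then miR-21-5p (-1.16). Just outside were miR-205b-3p at -0.88 (-1.28 to -0.48), miR-2131-5p at 0.87 (0.30 to 1.49) and miR-455-1,2-5p at -0.80 (-1.01 to -0.59).

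The F2 birds descend from both breeds. For the 13 miRNAs at the size, white F2 lay between Kaiya and Liancheng for 10 and above both for 3, where it was between for 35 of all 103. Black F2 lay between for 6 of the 13, above both for 6 and below both for 1, where it was between for 41 of all 103. A wide gap between the breeds leaves more room between them, so these counts are a description. White F2 was nearer to Kaiya for 6 of the 13 and nearer to Liancheng for 7. In 4 of the 13, the arms of mir-21, miR-6564-3p and miR-10b-2-3p, Kaiya and Liancheng were the 2 ends of the 5 libraries, as they were for 17 of all 103 (16.5%).

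A few miRNAs made up most of both libraries. The 10 with the highest mean share took 75.7% of the reads in Kaiya and 69.7% in Liancheng. In shares of reads, 13.6 percentage points in all would have to move to turn the Liancheng make-up into that of Kaiya, and miR-10b-2-5p (7.34 points) and miR-10b-1-5p (3.89 points) made up most of what was larger in Kaiya. The epithelial miR-205b-5p had 8.49% in Kaiya and 7.36% in Liancheng. Larger in Liancheng were miR-26a-5p (8.26% against 5.88% in Kaiya), miR-22-3p (7.70% against 5.37%), miR-21-5p (3.95% against 1.69%) and miR-6595-3p (2.54% against 1.10%). The shares of miR-146b-1,2-5p (5.87% in both), let-7d-5p (8.70% and 9.35%), miR-27b-3p (4.25% and 4.47%) and miR-367-3p (3.92% and 3.64%) were close. A share of a fixed total must be smaller for some miRNAs when it is larger for others. With TMM scaling, miR-26a-5p kept a log2 ratio of -0.43 and miR-22-3p one of -0.46.

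**Figure D3:**
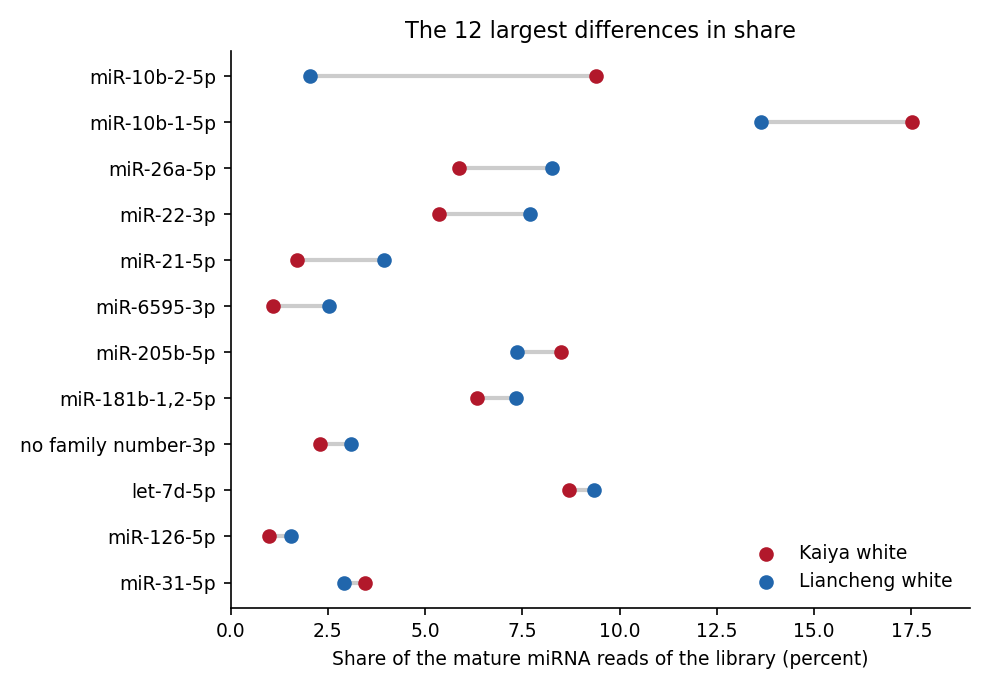
Share of the mature miRNA reads of each library, in percent, for the 12 miRNAs with the largest difference in share between Kaiya (red) and Liancheng (blue). miR-10b-2-5p spans 2.05% to 9.40%, and the 3p arm without a family number is another than the one at the size.

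Lists of miRNAs by cell type and family were then described, with no test of any list. Members were picked by the family number in the name. A strand of a family that is listed under another name, or without a number, is therefore not counted. The median log2 ratio of all 103 miRNAs was -0.07, and DESeq2 size factors, TMM without a filter and upper-quartile scaling moved it up by 0.10, 0.11 and 0.29. Medians of lists are read against it. All 6 dermal mesenchyme names with a ratio were lower in Kaiya, beside 56 of all 103, and 2 of the 6 are the same reads. Their median was -0.47 and none of these 6 names was at the size, beside 12.6% of all names (with upper-quartile scaling 5 of 6 were lower). They include miR-22-3p, miR-214-3p (-0.40), the dermal miRNA linked to Twist1 in mammals, and miR-455-1,2-5p (-0.80). miR-455-1,2-3p and miR-455-2-3p (-0.47 each) hold the same 66 and 36 reads. No listed name carries the family numbers miR-199, miR-143, miR-145 or miR-140, and a strand of these families under another name would have been missed. Such a strand may be at the size.

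The vessel miRNA miR-126 was lower in Kaiya on both arms under every scaling tried. miR-126-5p stood at 10328 CPM in Kaiya, 15449 in Liancheng, 13993 in white F2, 15689 in black F2 and 12302 in Cui Hei, a ratio of -0.58 (-0.60 to -0.56). Kaiya was the lowest library. miR-126-3p had -0.70 (-0.77 to -0.63). The arms of mir-126 and those of mir-144 differed in opposite directions between these libraries, and the cause was not tested.

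Keratinocyte and epithelium names, the defining list of the labelled tissue, were summed at 128005 CPM in Kaiya and 106838 CPM in Liancheng. Their 7 ratios ran from -0.88 to 0.31 with a median of -0.27 (0.03 with upper-quartile scaling). None of these 7 names reached the size, beside 12.6% of all names. The arms of mir-31, found in growing hair follicles of mice, had 0.31 each, whereas those of mir-200a had -0.33 and -0.43. No listed name carries the family numbers miR-141, miR-203 or miR-184, and sequences were not searched for these families. A strand of them that is listed under another name may therefore be at the size.

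Of the 9 melanocyte and pigment names with a ratio none was at the size, beside 12.6% of all names, a count too small to set the list apart. Their ratios lay between -0.35 and 0.26 with a median of -0.07, which turned positive with DESeq2 size factors, TMM without a filter and upper-quartile scaling. miR-204-5p, a relative of the melanocyte miRNA miR-211 with an identical seed, stood at 104 CPM in Kaiya and 120 in Liancheng, against 11695 in Cui Hei. The log2 ratio of Kaiya to Liancheng was -0.21 (-0.46 to 0.04), an interval that holds 0, and it was positive with upper-quartile scaling.

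The medians of the other lists lay near that of all names, while single members lay farther from it. The 2 leukocyte names by family number, the arms of mir-146b, had a median of 0.03 and the 5 neural names 0.02. Strands without a family number could not enter these lists, so either may lack members. In the neural list, miR-9-5p (0.16) and miR-9-3p (-0.76) had opposite signs. The 8 names of miR-17-92 and its relatives had a median of 0.14 and ran from -0.80 for miR-18a-1,2-5p to 0.26 for miR-18a-2-3p. Among them, miR-106-2,3-3p (-0.22) and miR-106-3-3p (-0.21) both name mir-106-3, so they may not be separate strands. The medians were -0.01 for the 4 miR-30 names, 0.03 for the 2 of miR-449, -0.07 for the 4 of miR-15 and miR-103, -0.00 for the 3 of miR-23 and miR-27 and 0.02 for the 2 listed as miR-367. Names are those of the tables, and the strand listed as miR-367-3p has the sequence known as miR-92a in other vertebrates, a relative of miR-17-92, so neither list is complete by sequence. They were -0.10 for the 2 of miR-26, -0.15 for the 3 of miR-181 and -0.04 for the 1 let-7 name. The 1 strand listed as miR-130 had 0.17, and its sequence was not compared with those of other families. Among these lists only miR-17-92 and miR-130 kept the sign of their median under every scaling tried. The muscle list had 1 name with a ratio, miR-499-5p, and the liver list (miR-122) had none listed. For families known from birds and other non-mammalian vertebrates no count is given, since that list was drawn up with the results known. On it, mir-6564 and mir-6595 stood by name only. Their sequences were not compared with those of other families, so either may belong to a family of another list. Beside the arms of mir-2188 and mir-460a described above, families known from non-mammalian vertebrates were also measured under the size. By name they include miR-2131-5p (0.87) and miR-2131-3p (0.30), miR-1662-5p (-0.54), miR-1552-5p and miR-1552-3p (-0.23 each), and miR-6612-5p (-0.74) and miR-6612-3p (-0.07).

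**Figure D4:**
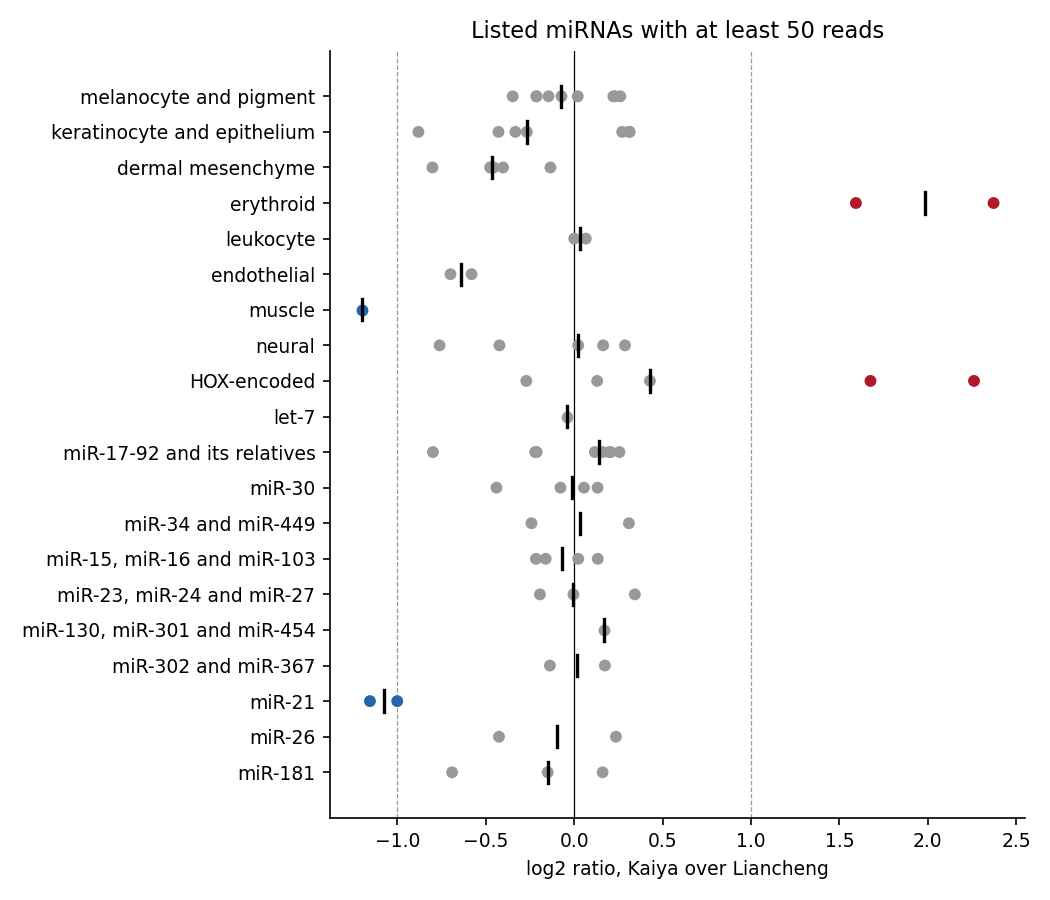
Log2 ratio of Kaiya over Liancheng for each listed miRNA with at least 50 reads, by list; black bars are medians, dashed lines the size, red points are at the size in Kaiya and blue points in Liancheng. With members placed by the family number in the name, points at the size sit in the erythroid, HOX-encoded, miR-21 and muscle lists. The list of families known from non-mammalian vertebrates is not drawn.

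The arms of a hairpin are cut from 1 transcript. In 37 hairpins each arm had 50 reads or more, and of these 25 had the same sign on both arms. Across them, Pearson's r of the 5p and 3p ratios was 0.773 and Spearman's rho 0.476, and r was 0.361 without the 3 hairpins that had both arms at the size in Kaiya. These are descriptions, since all points share 2 libraries, several strands belong to more than 1 hairpin and miR-181b-1,2-5p enters with 2. In 4 hairpins (mir-2188, mir-144, mir-10b-2 and mir-21) both arms reached the size in 1 direction, and in 2 only a 3p arm did, mir-6595 and the hairpin without a family number.

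The balance of the arms, the log2 of 5p over 3p reads with 0.5 added to each, differed between the breeds by a median of 0.319. It differed by at least 1 in 3 hairpins. For mir-2188 it was 4.76 in Kaiya and 3.15 in Liancheng, a difference of 1.61, where the Liancheng 3p arm has 9 reads. For mir-205b it was 11.4 and 10.3, a difference of 1.15, with 130 and 94 reads on the 3p arm, so that the rare arm was lower in Kaiya (-0.88) while the main arm was higher (0.27). For mir-18a-2 it was 2.32 and 3.35, a difference of -1.04, from 73 and 24 3p reads, but its 5p strand, miR-18a-1,2-5p, is shared with mir-18a-1, so this is not the balance of mir-18a-2 alone. Next in size was the hairpin without a family number whose 3p arm was at the size. It had 2.27 and 3.25, a difference of -0.98, with 7 reads on the Liancheng 3p arm. After it, mir-9 had 0.40 and -0.53. The 5p arm of mir-9 was thus the larger in Kaiya (1164 and 885 reads) and its 3p arm in Liancheng (408 and 589 reads).

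**Figure D5:**
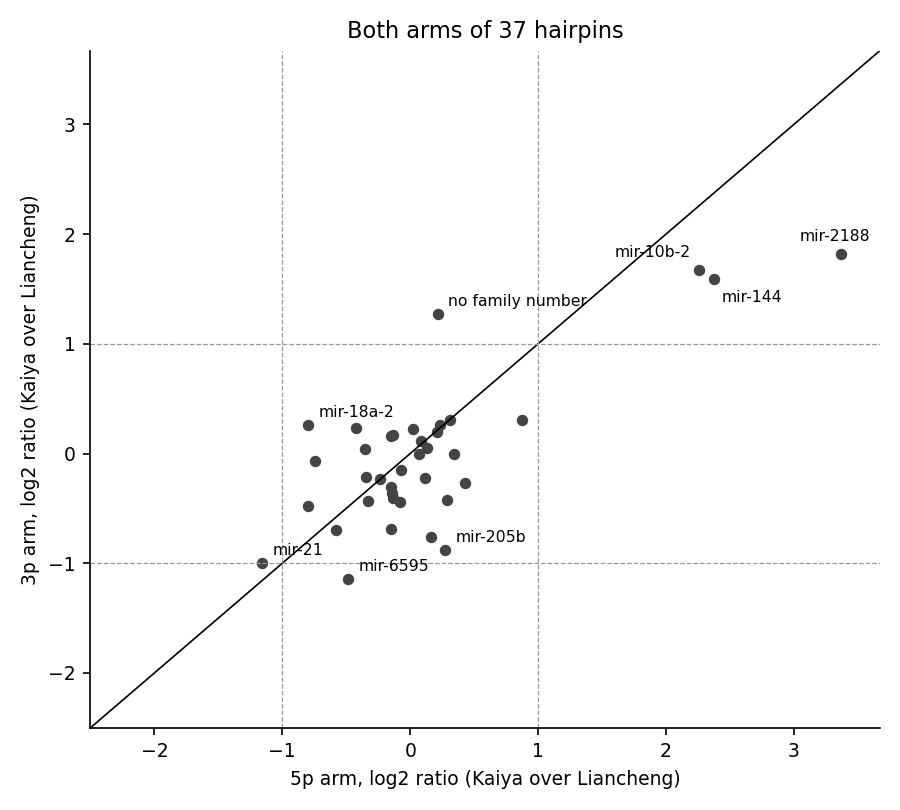
Log2 ratio of Kaiya over Liancheng for the 5p arm (x axis) and the 3p arm (y axis) of the 37 hairpins whose arms each had 50 reads or more; the solid line marks equal ratios and dashed lines the size. mir-2188, mir-144 and mir-10b-2 lie at the upper right and mir-21 at the lower left.

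Features of the listed sequences had weak correlations with the ratio, given as a description. Over 103 miRNAs the GC content had a Pearson's r of -0.01 and a Spearman's rho of 0.06 with the ratio, and the length 0.08 and 0.17. The GC content of the 7 names higher in Kaiya ran from 34.8% to 59.1% and that of the 6 higher in Liancheng from 28.6% to 52.2%, both within the 21.7% to 60.9% of the others. All 13 have 21 to 23 bases. Rarer miRNAs had slightly larger absolute ratios (rho of -0.23 with the mean level). Of the 9 seeds that 2 measured names share, only ACCCUGU of the miR-10b strands had ratios more than 1 apart, 0.43 and 2.26.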

How the data were processed

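Small RNA was sequenced from feather bulbs in 5 pooled libraries. Per the labels, RNA was extracted with TRIzol and sequenced on an Illumina HiSeq. Per the series' design text the authors ran miRDeep2 2.1.2, and per the submitters' processing notes also FastQC and Bowtie 0.12.2. Which genome build was used is not stated in the labels. The deposited values used are raw read counts per mature miRNA and per hairpin, per the file headers. The authors' CPM equal the count over the table's total to within 0.005.

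A mature name on several lines was taken once, with its highest count. Sequences are those that most tables list, since 10 lines in the Kaiya table have blank or shifted sequence cells. TMM factors (edgeR 4.0.16, R 4.3.3) were computed over all 5 libraries from the 114 names that filterByExpr keeps by colour. Ratios required 50 reads in the 2 libraries together and a listing in both. Intervals are exact Clopper-Pearson or Poisson at 95% (SciPy 1.17.1) and cover counting error only, as the reads carry no molecular identifiers. A floor of 3 reads is 0.729 CPM in Kaiya and 1.86 in Liancheng. The calculation of the ratio and its interval was run on simulated Poisson counts with known depths. Such counts hold no scaling error and no spread between birds or libraries, so they check the calculation only. No p-value was computed, since there is 1 library a side.

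Named are all miRNAs at the size, the 3 nearest on either side, the 10 most abundant, the other arms, and list members. Members and lists were chosen with earlier results of these data known. Alternatives covered scaling, read minimum, summed lines, unlisted names, hairpin totals (from DESeq2 1.42.0 the size factors alone) and the arm pseudocount.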

Additional observations from a re-analysis of the deposited data

Results flagged for a closer look

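Outside the comparison of mature miRNAs, reads that fell on a hairpin but not on its listed strands were concentrated on mir-27b-1, with 75354 in Kaiya and 34893 in Liancheng. They drew attention because they exceed the floor of 3 reads, and they made up 99.2% of all such reads in each library. Set against miR-27b-3p, they amounted to 0.415 in Kaiya and 0.488 in Liancheng. A 5p arm of a hairpin without a family number had 147 reads (91.0 CPM) in Liancheng and was not listed in Kaiya, so it has no ratio.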

How the results depend on the processing

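No direction of a miRNA at the size turned under any scaling, read minimum or handling of lines tried. The count higher in Kaiya was 7 and lay between 5 and 9 over the alternatives. The count higher in Liancheng was 6 and fell to 2 with upper-quartile scaling, where miR-21-5p, miR-21-3p, miR-6595-3p and miR-499-5p drop under the size and miR-2131-5p enters on the Kaiya side. The cause was not tested. Both directions together gave 8 with hairpin totals, where the arms of a hairpin are 1 feature. The median absolute log2 ratio of 0.271 moved to 0.308 with DESeq2 size factors, 0.398 with upper-quartile scaling and 0.311 with TMM without a filter, an alternative chosen after seeing the data. The SD of 0.758 moved to 1.20 when the unlisted 5p arm was taken as 0 in Kaiya. Hairpins with an arm balance apart by at least 1 went from 3 to 5 with 20 reads on each arm and to 1 with 200, because more or fewer hairpins enter. Black F2 lay between the breeds for 4 to 7 of the 13 under other scalings and white F2 for 10 to 11. No paired analysis was possible because each group has 1 library. The spread between birds of a breed cannot be estimated from these pools.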
